A study of Mus musculus with 16 samples.

Results

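The genes Abcg5, Abcg8 and Dync2li1 lie side by side on mouse chromosome 17. H3K27 acetylation of this locus was followed in liver of wild-type (WT) mice and mice labelled as NCoR1 knockouts (KO), each on 2 diets. Its members were chosen by position: a region belonged to the locus when its midpoint lay inside 1 of the 3 genes, or in no gene with 1 of them as the nearest protein-coding gene within 50 kb. The rule found 12 of the 52645 regions in the table of counts, and all 12 lay inside a gene. The position rule itself used no counts, but the locus was chosen with results of these same libraries in view. Every value of the 5 comparisons below is therefore a description of these 12 libraries, and none is independent support for a change at this locus.

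The mice were labelled C57BL/6J in both genotypes. From 6 weeks of age they stayed on chow or were fed for 3 weeks a low-iodine diet (LID) holding 0.15% propylthiouracil (PTU), written PTU/LID, and every group was killed on day 21. PTU keeps the thyroid from making its hormone, so PTU/LID is a model of hypothyroidism. The 4 groups were WT chow, WT PTU/LID, KO chow and KO PTU/LID, with 3 H3K27ac libraries each, and a single library is called by its title, such as Chow_WT_27ac_96 for WT chow. The labels give no deleted part of NCoR1, no driver of a recombinase and no statement that each library came from its own animal, so the p-values reflect only how far these libraries spread, which may be technical. In whole liver, fewer cells carrying the mark and less of the mark per cell cannot be told apart.

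ABCG5 and ABCG8 are ATP-binding cassette proteins that work only as a pair. In the hepatocyte the pair sits in the canalicular membrane and secretes cholesterol and plant sterols into bile, and loss of either gene causes sitosterolemia. The genes are read away from each other from starts that lie close together, and both are known targets of the oxysterol receptor LXR. Dync2li1 encodes a light intermediate chain of dynein-2, the motor of retrograde transport within cilia. H3K27 acetylation marks active promoters and enhancers, and NCoR1 is a corepressor that brings the histone deacetylase HDAC3 to nuclear receptors such as the thyroid hormone receptor and LXR.

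The stretch between the annotated starts of Abcg5 and Abcg8 is shown because both genes are read outward from it. It covers chr17:84683012-84683120 of GRCm38.p6 (mm10), 109 bases, and is given 5′ to 3′ on the + strand, the strand of Abcg8, from RefSeq. The capitals mark matches to AGATAA, a motif bound by GATA factors, both of them on the − strand, at positions 17 and 47 counted from the first base shown.
Abcg5 to Abcg8: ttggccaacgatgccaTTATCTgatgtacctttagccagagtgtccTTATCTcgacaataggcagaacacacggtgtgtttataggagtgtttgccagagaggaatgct
Of 32851 RefSeq promoter windows of the same length, the 109 bases before a start, 3.98% held AGATAA on either strand and 0.186% held it at least 2 times. That threshold of 2 was set from the matches in the stretch shown, so 0.186% is no independent measure of rarity. Searched likewise on both strands, the nuclear receptor element AGGTCA was in 6.39% of windows, CAAGGTCA in 0.487%, CAAAGTCCA in 0.183% and a direct repeat of AGGTCA with 4 bases between the copies, the arrangement known for LXR, in 0.0122%. AGGTCA also forms part of CAAGGTCA and of the repeat. None of these 4 was in the stretch between the Abcg5 and Abcg8 starts, which says only that these letters are not in this window.

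The regions are called R1 to R12 here in the order of their positions. The first 6 form a cluster of 7.478 kb toward the end of Dync2li1 (gene ID 213575, chr17:84626475-84655568). R1 spans chr17:84647036-84647852, R2 84648737-84649153, R3 84649230-84650951, R4 84651071-84651633, R5 84652330-84653687 and R6 84653851-84654513. The cluster begins 20.561 kb from the first base of Dync2li1, ends 1.055 kb before its last base, and lies 28.498 kb from the start of Abcg5. The table used for positions gives no exons, so exons and introns were not assigned.

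The other 6 regions surround the shared start. R7 (chr17:84681322-84681546) and R8 (84681933-84682999) lie inside both Abcg5 (27409, chr17:84658174-84683011) and Abcg8 (67470, chr17:84676302-84700333), whose spans overlap by 6.71 kb because RefSeq lists another Abcg8 start at 84676302. They were summed with Abcg5, whose end is nearer. R9 (84683107-84684527), R10 (84684906-84685476), R11 (84688599-84689446) and R12 (84689666-84690849) lie in Abcg8 alone. By chromosome position, R8 ends 12 bases before the Abcg5 start and R9 begins 14 bases before the Abcg8 start, with 107 bases between them. R9 thus covers the last 14 bases of the printed stretch, and R8 ends short of it, inside Abcg5. The clusters are 26.808 kb apart, with no region between them. The nearest regions outside lie 180.799 kb before R1, summed with Thada, and 42.067 kb after R12, summed with Lrpprc.

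**Figure D1:**
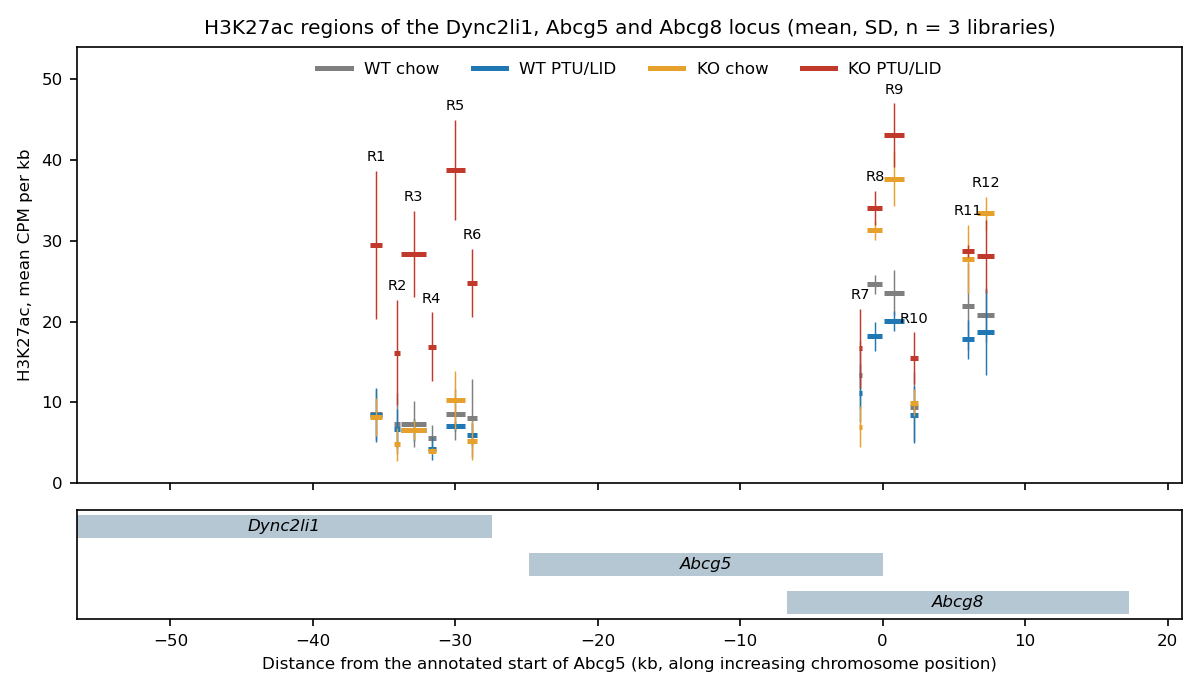
Mean H3K27ac of each region in counts scaled to library size (CPM) per kb of region, against its distance in kb from the annotated start of Abcg5; horizontal bars span the region, vertical lines are the SD over 3 libraries, colours are the 4 groups, and the lower panel shows the spans of the genes. KO PTU/LID has the highest mean at R1 to R6 on the left, though at R2 its libraries overlap those of other groups. At R8 and R9 both KO groups lie above both WT groups.

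Levels are given in CPM, the read counts set relative to each library's TMM-scaled total by edgeR, over the whole region. Per kb of region, the mean level at R1 to R6 was 3.95 to 10.3 CPM in WT chow, WT PTU/LID and KO chow, below the median of 18.7 to 19.6 CPM per kb over all regions. In KO PTU/LID the same 6 regions reached 16.2 to 38.8 CPM per kb, and R5, the highest, passed the 90th percentile of all regions in that group, 35.2. R9, at the Abcg8 start, held 20.1 and 23.6 CPM per kb in the WT groups and 37.7 and 43.1 in the KO groups.

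In the Dync2li1 cluster, R5 read 15.8, 11.6 and 7.27 CPM in WT chow, 8.96, 10.6 and 9.44 in WT PTU/LID, 19.2, 13.2 and 9.32 in KO chow and 60.6, 43.9 and 53.6 in KO PTU/LID. The KO PTU/LID libraries of R5 lay above all 9 others, and the other groups overlapped. R3 read 12, 17.7 and 7.94 CPM in WT chow, 14, 9.9 and 9.85 in WT PTU/LID, 13.2, 9.12 and 11.6 in KO chow and 57.3, 39.2 and 50.1 in KO PTU/LID. R3 showed the same order. R1 read 5.7, 9.94 and 5.29 CPM in WT chow, 9.56, 7.11 and 4.11 in WT PTU/LID, 4.54, 7.44 and 8.1 in KO chow and 32.5, 17.9 and 21.9 in KO PTU/LID. Its 3 KO PTU/LID libraries were again the highest, with a wide spread among them. R6 read 6.97, 7.45 and 1.65 CPM in WT chow, 4.48, 4.52 and 2.87 in WT PTU/LID, 5.08, 3.54 and 1.83 in KO chow and 18.9, 13.4 and 16.9 in KO PTU/LID. At R6 Chow_WT_27ac_106 was the lowest of its group by a wide margin, and KO PTU/LID stood above the rest. R4 read 2.85, 4.14 and 2.48 CPM in WT chow, 1.49, 2.58 and 3.08 in WT PTU/LID, 2, 2.23 and 2.45 in KO chow and 11, 6.76 and 10.8 in KO PTU/LID. The counts behind R4 were small, 5 to 74 per library, and the KO PTU/LID libraries still lay above the other 9. R2 read 3.48, 4.42 and 1.32 CPM in WT chow, 2.99, 1.72 and 3.7 in WT PTU/LID, 2.9, 1.86 and 1.22 in KO chow and 8.18, 3.59 and 8.45 in KO PTU/LID. R2, with 8 to 58 counts per library, was the exception: Ptulid_NCoRKO_27ac_232 read less than Chow_WT_27ac_99 and Ptulid_WT_27ac_280, so the groups overlapped. All 3 KO PTU/LID libraries thus lay above the other 9 at 5 of the 6 Dync2li1 regions and at 0 of the 6 Abcg5 and Abcg8 regions, beside 2.85% of all 52606 regions tested.

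At the shared start, R9 read 32.9, 29.8 and 37.7 CPM in WT chow, 30.2, 28.9 and 26.7 in WT PTU/LID, 56.8, 55.8 and 48 in KO chow and 55.2, 61.8 and 66.5 in KO PTU/LID. Both KO groups lay above both WT groups there, and the KO groups overlapped each other. R8, on the Abcg5 side, read 26.9, 24.8 and 27.1 CPM in WT chow, 19.1, 17.7 and 21.4 in WT PTU/LID, 34.8, 32.4 and 33 in KO chow and 36.6, 34 and 38.5 in KO PTU/LID. At R8 the WT PTU/LID libraries were the lowest and the KO groups overlapped above WT chow. R12 ranged from 16.4 to 41.9 CPM, R11 from 13.3 to 26.3, R10 from 3.14 to 10.1 and R7, the shortest region, from 1.22 to 4.81. At R12 the KO chow libraries were level with or above the highest KO PTU/LID library, 37 CPM, and at R10 and R7 KO PTU/LID lay above KO chow without overlap (6.76 to 10.1 against 4.65 to 6.57 CPM at R10 and 2.62 to 4.81 against 1.22 to 2.23 at R7) and overlapped the WT groups.

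**Figure D2:**
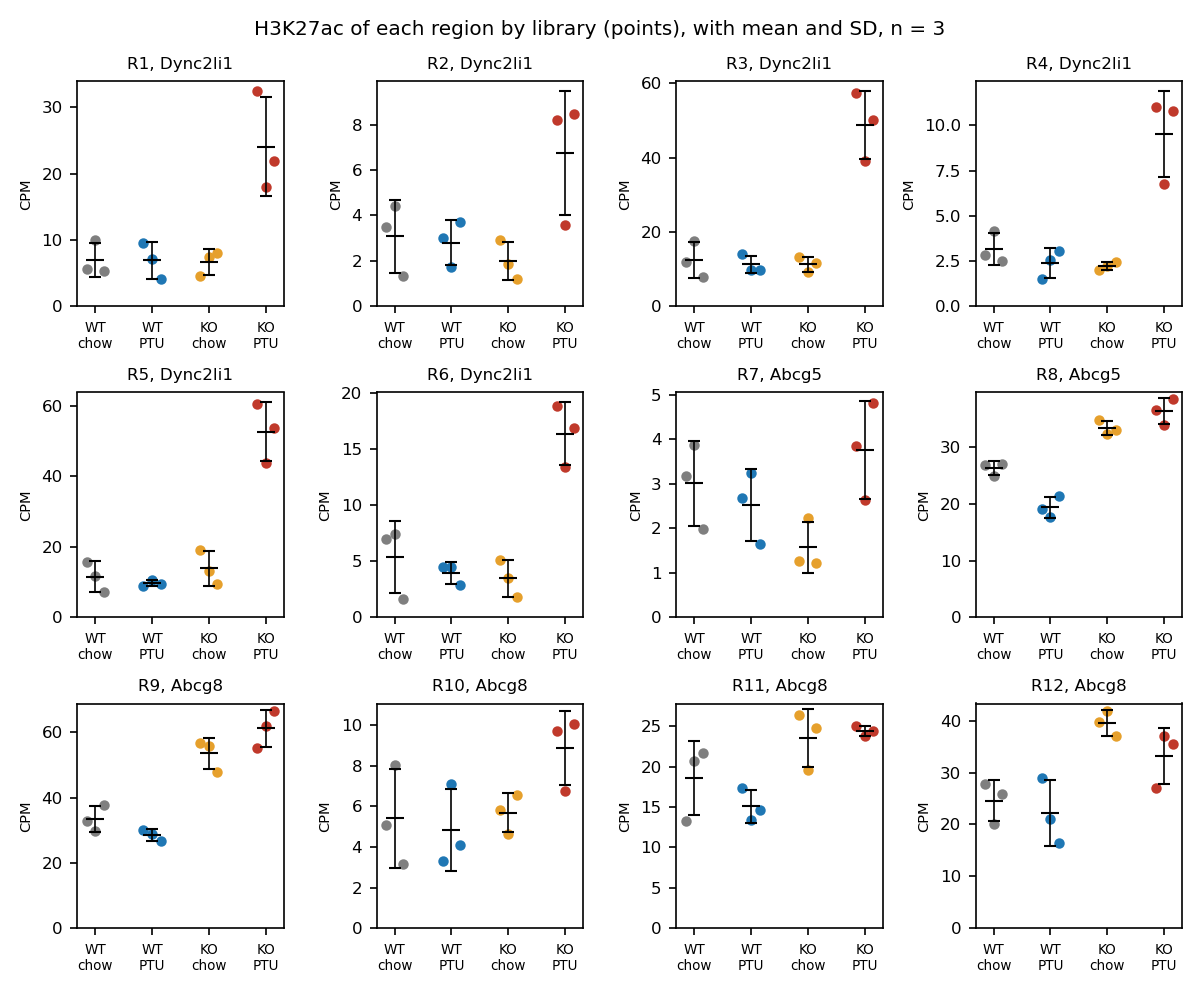
H3K27ac of R1 to R12 in CPM, 1 panel a region with its own axis from 0; points are libraries in the 4 groups (PTU stands for PTU/LID), and bars are mean and SD, n = 3. In R1 and R3 to R6 the 3 KO PTU/LID points lie above the other 9, and in R8 and R9 the 6 KO points lie above the 6 WT points.

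Gene-level CPM set the summed counts relative to each library's TMM-scaled total over all gene sums. It therefore differs from the sum of the region CPM values above. Summed over its 6 regions, Dync2li1 read 52.7, 62.5 and 28.1 CPM in WT chow, 46.7, 39.9 and 35.8 in WT PTU/LID, 52.2, 41.7 and 37.9 in KO chow and 214, 141 and 181 in KO PTU/LID. The mean was 47.8 ± 17.7 CPM (SD, n = 3) in WT chow, 40.8 ± 5.51 in WT PTU/LID, 44 ± 7.41 in KO chow and 179 ± 36.2 in KO PTU/LID. The first 3 groups did not differ beyond their spread. Abcg8, summed over R9 to R12, read 89, 89.1 and 95.7 CPM in WT chow, 89.8, 77.3 and 67 in WT PTU/LID, 143, 136 and 128 in KO chow and 133, 146.3 and 153 in KO PTU/LID. Its order of means was WT PTU/LID (78 ± 11.4), WT chow (91.3 ± 3.85), KO chow (136 ± 7.63) and KO PTU/LID (144 ± 10.3), with the KO libraries all above the WT libraries and neighbours within a genotype overlapping. Abcg5, summed over R7 and R8, read 33.8, 32.5 and 31.6 CPM in WT chow, 24.5, 22.9 and 24.9 in WT PTU/LID, 40.1, 38.6 and 37.6 in KO chow and 45.8, 41.4 and 48.5 in KO PTU/LID. Its groups followed the same order without overlap, at 24.1 ± 1.06, 32.6 ± 1.142, 38.8 ± 1.28 and 45.2 ± 3.61 CPM.

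The first comparison asked what PTU/LID changed in the KO liver. Dync2li1 was 4.06-fold higher on PTU/LID than on chow, a log2 fold change of 2.02 ± 0.24 (SE, adjusted p = 0.000114 over 11446 genes by edgeR's quasi-likelihood test). Abcg5 (0.22 ± 0.13, adjusted p = 0.374) and Abcg8 (0.09 ± 0.11, 0.733) did not pass the threshold of 0.05. Of the 12 regions, 7 were called higher and 0 lower, beside 3.28% and 2.94% of all regions. The 7 were the whole Dync2li1 cluster, R1 at 1.81 ± 0.28, R2 at 1.74 ± 0.40, R3 at 2.098 ± 0.226, R4 at 2.06 ± 0.32, R5 at 1.92 ± 0.23 and R6 at 2.24 ± 0.36, and R7 at 1.25 ± 0.40. R7 passed at an adjusted p of 0.05 (0.049969 before rounding) and did not pass in 11 of its 18 alternative settings, with adjusted p up to 0.288 without Ptulid_NCoRKO_27ac_239. R2 did not pass without Chow_NCoRKO_27ac_190 (adjusted p = 0.0518) or Ptulid_NCoRKO_27ac_239 (0.0577). The other Abcg5 and Abcg8 regions had log2 fold changes from -0.24 (R12) to 0.62 (R10). Of all genes, 4.39% were called higher and 3.05% lower here.

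The gain of Dync2li1 was spread over its cluster. Of the summed rise in mean region CPM from KO chow to KO PTU/LID, R5 made up 32.7% and R3 31.6%. R1 made up 14.7%, R6 10.9%, R4 6.14% and R2 4%. Of the 2623 genes with 6 or more tested regions, 4 had every region called higher in this comparison: Dync2li1, Khdc1a, Padi1 and Ptgfr. That count was taken after the values of Dync2li1 were seen.

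The second comparison set KO against WT on PTU/LID. All 3 genes were higher in KO: Dync2li1 4.39-fold (log2 2.13 ± 0.24, adjusted p = 0.000198), Abcg5 1.87-fold (0.91 ± 0.14, 0.000286) and Abcg8 1.86-fold (0.89 ± 0.12, 6.37e-05). Among all genes 4.88% were called higher and 1.4% lower. Of the 12 regions 8 were called higher and 0 lower, beside 3.17% and 0.698% of all regions. Within Dync2li1, R5 differed most (2.44 ± 0.24, adjusted p = 4.41e-08), the sixth of all regions by fold change, followed by R3 (2.13 ± 0.23), R6 (2.05 ± 0.37), R4 (1.93 ± 0.34) and R1 (1.81 ± 0.29), while R2 did not pass (1.23 ± 0.40, 0.0743). Around the shared start R9 (1.10 ± 0.17, adjusted p = 5.81e-05), R8 (0.90 ± 0.18, 0.00147) and R11 (0.70 ± 0.21, 0.0474) were called. R7, R10 and R12 had values of 0.58, 0.83 and 0.61 and did not pass. R11 did not pass in 10 of its 18 alternative settings, with adjusted p up to 0.179 without Ptulid_WT_27ac_155.

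On chow, KO and WT differed at Abcg8 and not detectably at Dync2li1. Abcg8 was 1.48-fold higher in KO (log2 0.57 ± 0.12, adjusted p = 0.0082), Abcg5 stood at 0.25 ± 0.14 (0.318) and Dync2li1 at -0.09 ± 0.25 (0.893). Genes called higher made up 2.43% of all genes and those called lower 1.54%. Of the 12 regions, 2 were called higher, R9 (0.67 ± 0.17, adjusted p = 0.0223) and R12 (0.68 ± 0.19, 0.0492), and 0 lower, beside 1.61% and 0.823% of all regions. Leaving out any 1 of 4 libraries, Chow_WT_27ac_96, Chow_WT_27ac_99, Chow_NCoRKO_27ac_122 and Chow_NCoRKO_27ac_146, ended the call of R9 (adjusted p = 0.0702 to 0.126), and R12 did not pass in 10 of its 18 settings (0.0571 to 0.222). Abcg8 as a whole did not pass without Chow_WT_27ac_99 (0.056).

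In WT mice, PTU/LID moved none of the 3 genes past the threshold. Abcg5 stood at -0.43 ± 0.15 (adjusted p = 0.0728), Abcg8 at -0.24 ± 0.12 (0.247) and Dync2li1 at -0.20 ± 0.26 (0.7), where 4.19% of all genes were called higher and 3.49% lower. Of the 12 regions 0 were called by edgeR in either direction, beside 1.81% higher and 1.9% lower among all regions. Their log2 fold changes ran from -0.44 (R8, unadjusted p = 0.0214) to -0.02 (R1), and R8 was the 1 region of 12 with an unadjusted p below 0.05. DESeq2 also called 0 of the 12 here. At an unadjusted p below 0.05 edgeR had 0 of the 12 lower in the other comparisons, except for 1 (R7, -0.88 ± 0.43) between KO and WT on chow, and DESeq2 called 0 lower in any comparison.

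The interaction of genotype and diet is the PTU/LID difference in KO minus that in WT. It was 2.22 ± 0.35 for Dync2li1 (adjusted p = 0.0144), 0.65 ± 0.20 for Abcg5 (0.196) and 0.33 ± 0.17 for Abcg8 (0.513), where 0.297% of all genes were called higher and 0.105% lower. Of the 12 regions, 4 were called higher and 0 lower, beside 0.158% and 0.0722% of all regions: R3 (2.23 ± 0.34, adjusted p = 0.00117), R5 (2.12 ± 0.36, 0.00344), R4 (2.39 ± 0.52, 0.031) and R6 (2.58 ± 0.56, 0.0416). R1 (1.84 ± 0.43, 0.0542) and R2 (1.77 ± 0.62, 0.296) did not pass. Among the 2623 genes with 6 or more regions, Dync2li1 and Lyrm4 were the 2 with at least 4 regions called higher for the interaction, a count also taken after the values were seen. Dync2li1 did not pass without Ptulid_WT_27ac_280 (adjusted p = 0.0616). R4 did not pass in 7 of its 16 settings (0.0505 to 0.127) and R6 not in 9 of 17 (up to 0.178), each time with 1 library left out. DESeq2 gave R4 no adjusted p for the interaction, so that setting is not among its 16.

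**Figure D3:**
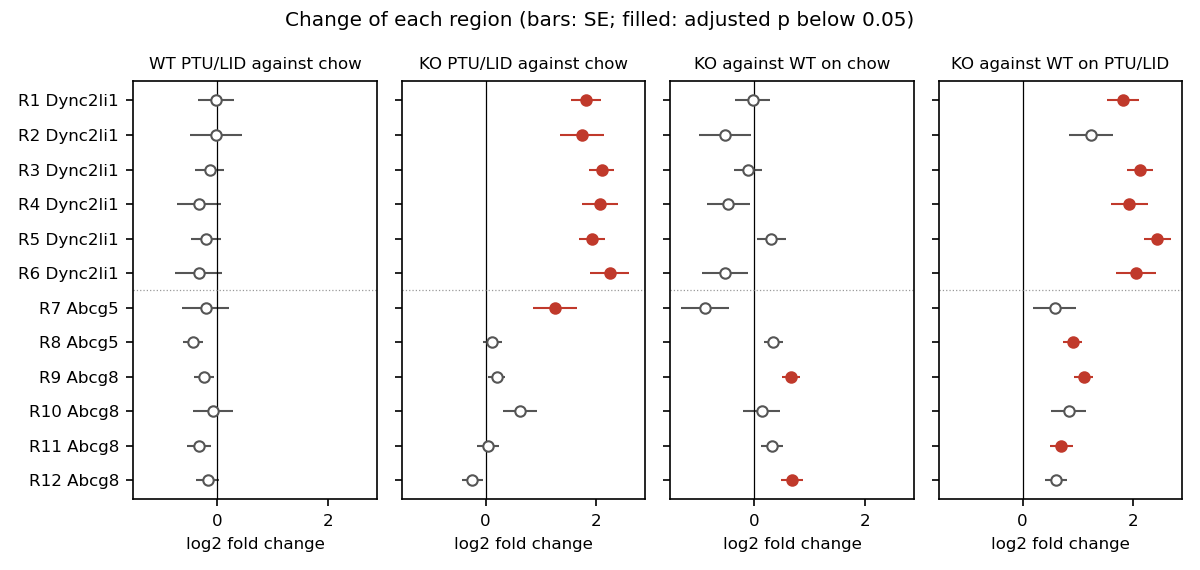
Log2 fold change of each region (rows R1 to R12, with the gene it was summed with) in the 4 pairwise comparisons; points are edgeR estimates, bars are SE and filled points have an adjusted p below 0.05. KO PTU/LID against chow fills R1 to R7, and KO against WT on PTU/LID fills R1, R3 to R6, R8, R9 and R11.

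The comparisons share groups, so their values are set side by side only. The ratio of Dync2li1 counts to Abcg5 and Abcg8 counts within each library needs no scaling between libraries. It was 0.429, 0.514 and 0.221 in WT chow, 0.409, 0.399 and 0.39 in WT PTU/LID, 0.285, 0.239 and 0.229 in KO chow and 1.2, 0.752 and 0.9 in KO PTU/LID. Every KO PTU/LID library lay above every other library. Chow_WT_27ac_106 and the KO chow libraries had the lowest ratios, so KO chow lay below WT PTU/LID without overlap and overlapped WT chow.

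**Figure D4:**
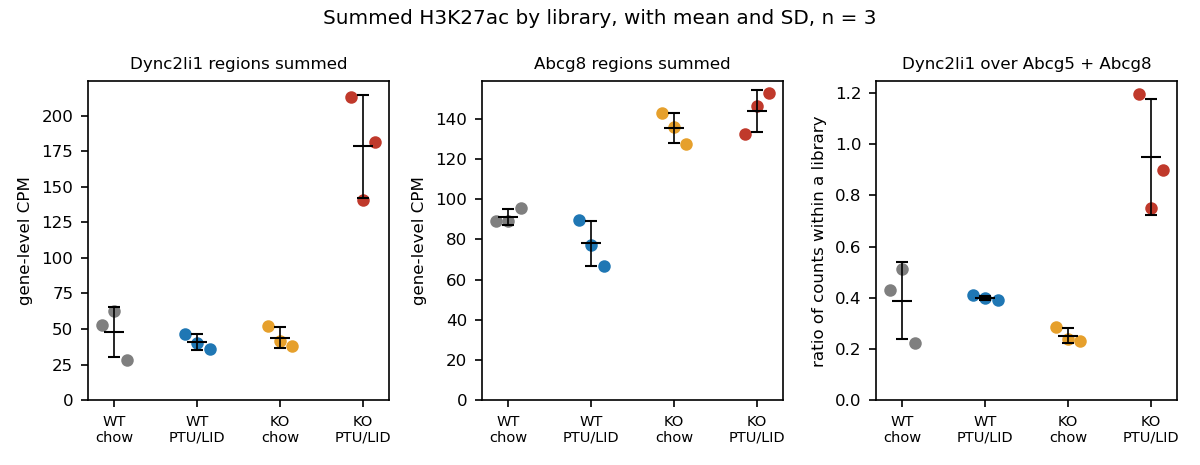
Summed H3K27ac of Dync2li1 (left) and Abcg8 (middle) in CPM and the within-library ratio of Dync2li1 counts to Abcg5 plus Abcg8 counts (right), by library, with mean and SD, n = 3. Dync2li1 and the ratio are high in KO PTU/LID alone, at 141 to 214 CPM and 0.752 to 1.2, while Abcg8 is higher in both KO groups.

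The libraries held 2965505 to 7416187 counts over all regions, and all 12 locus regions passed edgeR's filter on low counts. Reads on the mitochondrial chromosome, chrM, made up 0.717% to 17.2% of counts (highest in Chow_NCoRKO_27ac_146) and split the libraries into 7 above 2% and 5 below, across the groups. Within these sets the log2 ratio of mean CPM between KO and WT on PTU/LID was 2.19 (above 2%, 1 library a group) and 2.09 (below, 2 a group) for Dync2li1, 0.90 and 0.91 for Abcg5, and 0.56 and 1.05 for Abcg8. KO chow had no library below 2%. Above 2%, KO PTU/LID against chow (1 library against 3) gave 2.28 for Dync2li1 and -0.03 for Abcg8, and KO against WT on chow (3 against 2) gave -0.39, 0.23 and 0.61 for Dync2li1, Abcg5 and Abcg8. For WT PTU/LID against chow, Dync2li1 gave -0.30 above and 0.43 below. Acetylation summed over Ncor1 was 44.5 to 62.3 CPM in WT chow, 50.8 to 63.5 in WT PTU/LID, 45.5 to 64.1 in KO chow and 47.9 to 59.4 in KO PTU/LID, which does not check the knockout since its deleted part is not named.

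Of the 8 other protein-coding genes within 500 kb, Plekhh2 had no region. Lrpprc, whose product binds mitochondrial mRNA, followed Abcg8 downstream and was higher in KO on PTU/LID (0.39 ± 0.10, adjusted p = 0.0239; means 287 against 220 CPM). Slc3a1, a subunit of a cystine transporter, fell in WT on PTU/LID (-0.37 ± 0.11, 0.0349; 244 against 314 CPM). Both calls were lost without 1 of several libraries, with adjusted p up to 0.111 without Ptulid_NCoRKO_27ac_239 for Lrpprc and up to 0.151 without Ptulid_WT_27ac_280 for Slc3a1. Zfp36l2, Thada, Ppm1b, Prepl and Camkmt were called in none of the 5 comparisons. Among all genes, 4.88% were called higher in KO against WT on PTU/LID and 3.49% lower on PTU/LID in WT. The shares for the other comparisons are given above.

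The genes most like each member were those with the smallest root mean square difference of centred log2 CPM over the 12 libraries. For Abcg8 they were Shmt1 (0.107), Ppp1r3b (0.134), Dlat (0.146), Mlxipl (0.147) and Rwdd3 (0.148), where the median gene differed by 0.469. Shmt1, a serine hydroxymethyltransferase, had means of 191 and 172 CPM in WT chow and WT PTU/LID and 281 and 284 in KO chow and KO PTU/LID. For Abcg5 they were Acss3 (0.117), Lepr (0.12), Elovl5 (0.133), Rwdd3 (0.137) and B4galt1 (0.137), against a median of 0.422. Lepr, the leptin receptor, read 169, 112, 212 and 231 CPM in the order WT chow, WT PTU/LID, KO chow and KO PTU/LID, with its lowest mean in WT PTU/LID as Abcg5 had. For Dync2li1, looked up after its values were seen, the nearest were farther off: Fabp5 (0.353), Kcnk3 (0.405), Cinp (0.432), Castor2 (0.459) and Olfml2b (0.502), against a median of 0.962. Fabp5, a fatty acid binding protein, read 44.4, 45.6, 68 and 154 CPM in the same order of groups, and Kcnk3, a potassium channel, 45.1, 61.5, 49 and 167.

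Other genes of the pathway were read by their summed regions. Of 16 targets of LXR, which include neither Abcg5 nor Abcg8, 6 were called higher and 0 lower in KO against WT on PTU/LID (median log2 fold change 0.32, and -0.03 over all genes), where 4.88% of all genes were called higher and 1.4% lower. Scd1, the stearoyl-CoA desaturase, stood at 1.62 ± 0.11, Pnpla3, a lipid droplet protein, at 1.60 ± 0.28, Pltp, the phospholipid transfer protein, at 0.86 ± 0.14 and Mlxipl, the carbohydrate response factor ChREBP, at 0.70 ± 0.11. On chow 5 of the 16 were higher in KO and 1 lower (median 0.29), beside 2.43% and 1.54% of all genes, among them Scd1 (0.98 ± 0.11), Cyp7a1, the first and rate-limiting step from cholesterol to bile acids (0.70 ± 0.13), Mlxipl (0.65 ± 0.11) and Srebf1 (0.63 ± 0.13). The lower one was Mylip (-0.50 ± 0.13), a ligase for the LDL receptor, named here after its value was seen. PTU/LID in KO, where 4.39% of all genes were called higher and 3.05% lower, raised Scd1 (0.77 ± 0.11) and lowered Cyp7a1 (-0.996 ± 0.131), and in WT, where 3.49% of all genes were called lower, 2 fell, Cyp7a1 (-0.65 ± 0.14) and Mylip (-0.55 ± 0.14). For the interaction edgeR called 0 of the 16 in either direction, beside 0.297% of all genes called higher and 0.105% lower. There 3 of the 16 were higher at an unadjusted p below 0.05, and DESeq2 called 1 higher.

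Of 12 genes of sterol efflux and bile secretion, 11 were tested. On PTU/LID 3 were higher in KO, beside 4.88% of all genes: Abcb4, the phosphatidylcholine floppase of the canaliculus (0.66 ± 0.11), Abcb1a (0.58 ± 0.16) and the bile salt pump Abcb11 (0.87 ± 0.24, adjusted p = 0.048). On chow 2 were higher in KO, beside 2.43% of all genes, Npc1, which exports cholesterol from lysosomes (0.49 ± 0.13), and Abcb4 (0.41 ± 0.11). In WT 1 was lower on PTU/LID, Abcb4 (-0.55 ± 0.11), beside 3.49% of all genes called lower. The list's median was 0.11 on PTU/LID and 0.27 on chow between genotypes. For KO PTU/LID against chow and for the interaction, edgeR and DESeq2 each called 0 of 11. In each of these, 1 gene was lower at an unadjusted p below 0.05. By edgeR 4.39% of all genes were called higher and 3.05% lower for KO PTU/LID against chow. For the interaction it was 0.297% and 0.105%, so 0 of 11 is no result about these genes. Of 15 regulators known for Abcg5 and Abcg8, Nr0b2, the corepressor SHP, was the 1 gene that edgeR called in any of the 5 comparisons (0.48 ± 0.12, higher in KO on PTU/LID), where 3 of the 15 were called by DESeq2. That 1 of 15 stands beside 4.88% of all genes called higher in the same comparison.

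Of 25 genes of cholesterol synthesis and uptake, 24 were tested, and 6 were higher and 0 lower in KO on PTU/LID (median 0.26), beside 4.88% and 1.4% of all genes. They included Sqle, squalene epoxidase (0.88 ± 0.18), Sc5d, a desaturase of the last steps of synthesis (0.80 ± 0.11), Mvd (0.78 ± 0.20) and Pmvk (0.70 ± 0.17), enzymes of the mevalonate pathway. On chow Sc5d was the 1 called (0.49 ± 0.11, higher in KO), beside 2.43% of all genes called higher. On PTU/LID 2 of the 24 were called lower in WT, Scap, the escort of SREBP (-0.68 ± 0.12), and Sc5d (-0.48 ± 0.11). In KO 1 was called lower, Scap (-0.52 ± 0.12). Of all genes, 3.49% were called lower in WT and 3.05% in KO. The 1 of 24 in KO is near that share. The 2 of 24 in WT is above it, but 2 genes are too few to be a result about the list. Of the 27 calls named in these lists by the fixed rule, 16 held under every alternative setting run and 11 were lost under 1 or more. The lost ones were Abcb11, Abcb1a, Nr0b2, Mvd and Pmvk in KO against WT on PTU/LID, Abcb4, Npc1, Sc5d and Srebf1 in KO against WT on chow, Mylip in WT and Scap in KO on PTU/LID.

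Markers of other liver cells were read in the same way. The summed level of 10 hepatocyte genes was 4895 to 5272 CPM in KO PTU/LID, 3866 to 4264 in KO chow, 3438 to 4945 in WT PTU/LID and 3476 to 4415 in WT chow. For 9 of 10 endothelial genes with regions it was 664 to 714 in KO PTU/LID, 694 to 717 in KO chow, 741 to 845 in WT PTU/LID and 881 to 928 in WT chow. For 3 of 8 cholangiocyte genes, cells whose primary cilia use dynein-2, it was 337 to 365 in KO PTU/LID, 293 to 329 in KO chow, 298 to 336 in WT PTU/LID and 254 to 284 in WT chow; Krt19, Krt7, Epcam, Cftr and Muc1 had no region. Macrophage genes (4 of 10, without Adgre1, Clec4f, Cd5l, Marco, Vsig4 and Lyz2) summed to 35.3 to 49 CPM in KO PTU/LID, 35.3 to 40.3 in KO chow, 36.6 to 38 in WT PTU/LID and 51.3 to 70.5 in WT chow. Stellate cell genes (5 of 10) summed to 32.2 to 45.8, 31.1 to 45, 42.1 to 57.1 and 51.6 to 69.4 CPM, and lymphocyte genes (2 of 8) to 73.9 to 75.7, 105 to 143, 51.2 to 68.2 and 98.6 to 102 CPM, in the same order of groups. Of the 33 marker genes tested in the 6 lists, edgeR called 0 between KO and WT on PTU/LID, beside 4.88% of all genes called higher and 1.4% lower. At an unadjusted p below 0.05, 3 were higher and 4 lower there, and DESeq2 called 1 higher. For KO PTU/LID against chow 1 marker was higher, Ttr of hepatocytes (0.48 ± 0.09), and 2 were lower, Tek of endothelium (-0.87 ± 0.27) and Cd4 of lymphocytes (-1.03 ± 0.16), beside 4.39% and 3.05% of all genes. On chow, where Abcg8 differed, 4 endothelial, 2 stellate cell, 1 macrophage and 1 lymphocyte gene were called lower in KO and 0 of the 33 higher by edgeR, beside 1.54% and 2.43% of all genes. At an unadjusted p below 0.05, 3 were higher and 11 lower on chow, and DESeq2 called 1 higher and 8 lower. The part of cell makeup in the values of the locus was not tested.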

How the data were processed

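H3K27ac ChIP-seq of liver gave 1 table of read counts over 52645 regions for 12 libraries, used here as the authors deposited it. The 4 input libraries of the labels are not analysed here. Per the submitters' processing notes, reads were handled with bedtools 2.26.0, MACS2 2.1.1, Picard 2.8.1, Bowtie2 2.2.1 and bcl2fastq 2.17.1.14 (named with no roles) on mm10; how the shared regions were made is not given in the sources used here.

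Gene positions and sequences came from RefSeq (GRCm38.p6). A region went to the gene holding its midpoint (to the gene whose end is nearest where several hold it), or else to the nearest protein-coding gene within 50 kb, and counts were summed per gene. Counts over 11458 genes with a region gave 11446 tested genes, and 52606 regions were tested. edgeR 4.0.16 (R 4.3.3) fitted 1 mean per group over all 12 libraries, with TMM factors, filterByExpr (minimum count 10) and the robust quasi-likelihood test, after tests on simulated data. Benjamini-Hochberg adjustment ran over all features, with a threshold of 0.05. SE is the log2 fold change over the root of F. Likeness used log2 of CPM plus 0.5. Counts of 2965505 to 7416187 per library limit the precision. The SE takes in the spread between libraries as well as counting error, and the SD is over libraries.

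The members, gene lists and tests were chosen with earlier results of these data known. Named regions are those past the threshold in any comparison, at most 8 by smallest adjusted p with every library's value, plus the shared start; named list genes are at most 4 per list and comparison by smallest adjusted p. Alternatives were DESeq2 1.42.0, upper-quartile factors, no filter, chrM regions left out, a term for the chrM sets, fits of the compared groups alone, a distance of 10 kb and leaving out each library. No library number recurs across groups, so samples were not paired.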

Additional observations from a re-analysis of the deposited data

Results flagged for a closer look

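The diet response differed between genotypes, by the interaction term of edgeR's quasi-likelihood test, at 4 regions of the Dync2li1 cluster and at the gene as a whole. On the log2 scale the PTU/LID difference in KO exceeded that in WT by 2.233 at R3, 2.388 at R4, 2.122 at R5 and 2.575 at R6, and by 2.221 for Dync2li1 summed over its 6 regions. The locus was chosen with results of these libraries in view, so these values describe the libraries and do not support one another. None of the Abcg5 and Abcg8 regions passed this test. R3 and R5 passed in every alternative setting. R4 did not pass in 7 of the 16 that gave it an adjusted p, and R6 not in 9 of 17. Dync2li1 as a whole did not pass without Ptulid_WT_27ac_280.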

How the results depend on the processing

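No paired analysis was possible because the groups share no library numbers. At gene level the members kept their direction and call in 276 of 282 alternatives. Dync2li1 for WT PTU/LID against chow, not called, turned to 0.02168 with the chrM-set term and ran from -0.5257 to 0.03024 with 1 library left out; for KO against WT on chow, also not called, it ran from -0.3919 to 0.1638. Its interaction ran from 1.986 to 2.541 and was lost without Ptulid_WT_27ac_280. Abcg8 for KO against WT on chow ran from 0.5277 to 0.6086 and was lost without Chow_WT_27ac_99. The number of locus regions called for KO against WT on chow was 1 with upper-quartile factors and 0 to 2 with 1 library left out, where edgeR called 2, and for the interaction 2 to 5, where edgeR called 4. With 1 library left out it was 5 to 7 (7 by edgeR with all libraries) for KO PTU/LID against chow and 7 to 9 (8) for KO against WT on PTU/LID, where the chrM-set term gave 10. R1, R3, R5 and R6 in both of these comparisons, R4 in the first, and R8 and R9 in the second, passed in every alternative run. In the second, R4 passed in 17 alternatives, and DESeq2 gave it no adjusted p. Over all regions, 1949, 3269, 1278, 2032 and 121 were called in the 5 comparisons, in the order WT PTU/LID against chow, KO PTU/LID against chow, KO against WT on chow, KO against WT on PTU/LID and interaction. With 1 library left out these ran over 669 to 3612, 1794 to 4017, 448 to 1976, 929 to 2599 and 33 to 208. The chrM-set term gave 4008, 3380 and 523 in the last 3, the compared groups alone 2523 and 1304 between genotypes on chow and on PTU/LID, and DESeq2 184 for the interaction. The causes of these differences were not tested. The interaction uses all 4 groups, so it has no fit of compared groups alone. Counts of 5 to 74 at R4 and 7 to 33 at R7 limit what could be detected there.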
